A study of Homo sapiens with 6 samples.

Results

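The nuclear respiratory chain genes described here are the protein-coding genes whose GENCODE 29 symbol starts with NDUFA, NDUFB, NDUFC, NDUFS, NDUFV, SDH, UQCR, COX or ATP5. They numbered 112 of 65198 gene rows. The cells were MDA-MB-231, an established basal-like breast cancer line, and both groups carried a tetracycline-inducible hairpin and received 1 µg/ml doxycycline for 96 h. In the 3 shHOTAIR libraries the hairpin was directed at HOTAIR, a long non-coding RNA, and in the 3 shCtrl libraries its sequence was scrambled. Poly(A) RNA was sequenced, and levels are in FPKM, fragments scaled for transcript length and for library size, so that levels of different genes can be compared per length. Each group came from a single derivative of the line, described as having independent biological repeats, so p-values compare repeats of these derivatives, and the hairpin and the derivative cannot be told apart.

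HOTAIR itself was close to 0 in every library, with 0, 0.0128 and 0.0132 FPKM in shCtrl 1, 2 and 3 and 0, 0 and 0.0113 FPKM in shHOTAIR 1, 2 and 3. The groups did not differ by an exact two-sided permutation test (p = 0.400, smallest possible 0.1). HOTAIR lay under the 1 FPKM limit of the expression test described below. Limma without that limit, over 36141 genes, gave an adjusted p of 0.786, so knockdown could not be read from these values. VIM, CD44, KRT18 and KRT8 of the line were all detected, while of 4 genes known to be low in it ESR1 reached at most 0.0947 FPKM, CDH1 0.114 FPKM and PGR 0, but ERBB2 was at 17.3 to 25.5 FPKM. VIM spanned 906 to 977 FPKM in shCtrl and 361 to 411 FPKM in shHOTAIR. Summed leukocyte and endothelial markers stayed at or under 0.424 FPKM. The 3 fibroblast markers summed to 1.43 to 2.25 FPKM in shCtrl and 3.60 to 3.98 FPKM in shHOTAIR, of which COL1A1 gave 1.08 to 1.58 and 3.27 to 3.82 FPKM, and the 4 striated muscle markers summed to at most 0.581 FPKM, with MYH7 at 0. The part of these markers in the results was not tested. In bulk RNA, fewer cells of a type and less RNA per cell cannot be told apart. Summed FPKM over all genes ran from 2224150 to 2569505 in shCtrl and from 1620978 to 1820768 in shHOTAIR, and over protein-coding genes tested from 769187 to 793679 and from 734044 to 768385. The number of fragments sequenced is not known, so no counting interval is given.

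The respiratory chain sits in the inner mitochondrial membrane, where complex I takes electrons from NADH and complex II takes them from succinate, both passing them to ubiquinone. Complex III hands them to cytochrome c, complex IV gives them to oxygen, and complexes I, III and IV pump protons that complex V, the ATP synthase, uses to make ATP. Most subunits are encoded in the nucleus and imported, a small core is encoded by mitochondrial DNA, and dedicated assembly factors insert cofactors and join the modules.

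Promoters of nuclear respiratory genes are known for sites of NRF1, of ETS factors such as GABP, of YY1 and of CREB. RefSeq promoter windows of GRCh38.p14, from 250 bases before to 50 bases after the transcript start, were matched to 91 of the 112 members and searched on both strands. The NRF1 letters GCGCANGCG were found in 28 member promoters (30.8%) and in 11% of 15843 protein-coding promoters. CCGGAAGT, of ETS factors, was in 14 (15.4%, against 6.19%), AAGATGGCG, of YY1, in 9 (9.89%, against 2.74%), and TGACGTCA, of CREB, in 5 (5.49%, against 2.59%). At least 1 of the 4 was in 46 member promoters (50.5%) and in 20.1% of protein-coding promoters. No motif contains another, but the NRF1 letters can match on both strands over shared bases, as in the palindromic run of ATP5F1C and COX18. Among members that passed the expression test described next, the NRF1 letters were in 3 of 9 that were higher and 2 of 11 that were lower, and in 22 of 66 that did not pass. The ETS letters were in 1 of 9 higher, 3 of 11 lower and 10 of 66 others. A match is a description of these letters, not of binding. The stretches below, 30 bases each and read 5′ to 3′ on the gene's strand, show that the same letters stand before genes that went in opposite directions; capitals mark the motif, or its reverse complement in NDUFS1 and SDHAF2. NDUFS6 (chr5:1801351-1801380, plus strand) and COX18 (chr4:73069744-73069773, minus) were higher in shHOTAIR, ATP5F1C (chr10:7788145-7788174, plus) and NDUFA3 (chr19:54102675-54102704, plus) were lower, and all 4 show the NRF1 letters. NDUFS1 (chr2:206159583-206159612, minus) was higher, ATP5MD (chr10:103396616-103396645, minus, ATP5MK in RefSeq) and SDHAF2 (chr11:61430011-61430040, plus) were lower, and all 3 show the ETS letters. NDUFA10 (chr2:240025371-240025400, minus) was higher and shows the CREB letters.
NDUFS6: cagaagccgtGCGCATGCGttagcgctaag
COX18: gcaggcaggcGCGCATGCGCtttatgcccg
ATP5F1C: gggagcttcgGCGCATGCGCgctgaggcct
NDUFA3: ctgcgcgagtGCGCACGCGcaggctccgaa
NDUFS1: ggctggggccACTTCCGGcggaactgcggg
ATP5MD: tgcaattcttCCGGAAGTgtgggcgggctc
SDHAF2: acgcaccgccACTTCCGGcatgcgcaggga
NDUFA10: accccggccgTGACGTCAcggcagcgcgcc

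Most members were strongly expressed. Of the 112, 102 averaged 1 FPKM or more, the limit for testing, and their median level was 79.1 FPKM against 20.6 FPKM over all protein-coding genes tested. ATP5F1B, the catalytic beta subunit of ATP synthase, was the highest at 1880 ± 137 FPKM in shCtrl and 1800 ± 157 FPKM in shHOTAIR (SD, n = 3 each). ATP5PB, a peripheral stalk subunit, followed at 491 and 478 FPKM, then UQCRQ at 404 and 394 FPKM and UQCRB at 410 and 370 FPKM, both small complex III subunits, and ATP5MD, described below. Median levels were 206 FPKM for complex IV members, 169 for complex III, 158 for complex V, 131 for complex II, 76.6 for complex I and 23.4 for assembly factors. The lowest tested members were the readthrough gene NDUFC2-KCTD14, the copper chaperone COX19 (4.64 and 5.20 FPKM), COX20, an assembly factor of the complex IV subunit COX2 (7.55 and 5.71 FPKM), and the complex II assembly factors SDHAF1 (6.30 and 5.49 FPKM) and SDHAF4 (7.40 and 7.11 FPKM). NDUFC2-KCTD14 ran from 0.000012 to 10.7 FPKM within shHOTAIR, so its level is not set by these libraries.

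**Figure D1:**
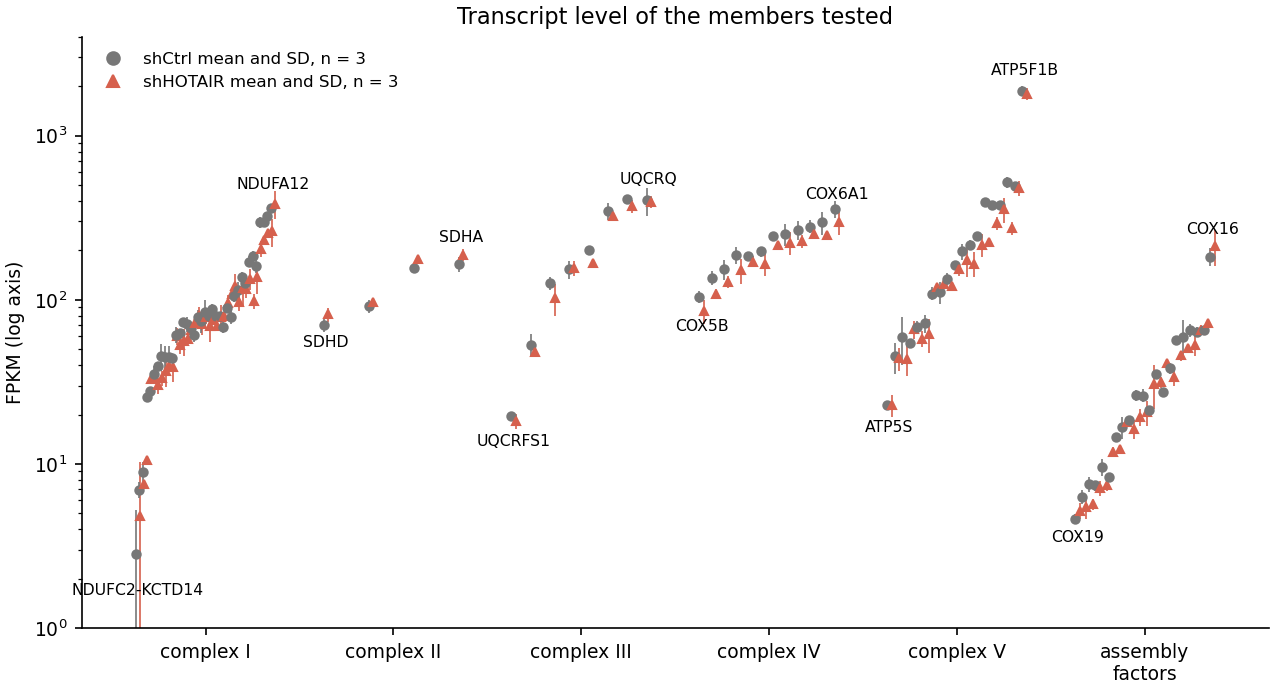
Mean FPKM of the tested members (log axis) by complex, each pair of points a gene with its shCtrl and shHOTAIR mean and SD of 3 libraries, ordered by level. Medians are 206 FPKM for complex IV members and 23.4 FPKM for assembly factors, and the SD bars of NDUFC2-KCTD14 run off the lower end of the axis.

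The 10 members under 1 FPKM were UQCRHL, COX4I2, COX6A2, COX6B2, COX7A1, COX7B2, COX8C, NDUFA4L2, ATP5MGL and the readthrough gene ATP5MF-PTCD1. Of these, COX4I2, COX6A2, COX7B2 and NDUFA4L2 were listed at 0 in all 6 libraries. COX7A1, the heart and muscle form of a complex IV subunit, reached 0.431 FPKM in shCtrl 3 and 0.724 FPKM in shHOTAIR 3 at most. COX6B2, a testis form, reached at most 0.115 FPKM, and COX8C at most 0.318 FPKM. The widely expressed partner of each stood far above it, with COX4I1 at 187 FPKM, COX6A1 at 358, COX6B1 at 197, COX7A2 at 296, COX7B at 153, COX8A at 136 and NDUFA4 at 279 FPKM in shCtrl.

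Between shHOTAIR and shCtrl, 20 of the 102 tested members changed (19.6%), 9 higher and 11 lower, by limma on log2(FPKM + 1) with Benjamini-Hochberg adjustment over all 15934 genes tested and a threshold of 0.05. Over all genes tested 23.8% changed, 11.5% higher and 12.4% lower, and over protein-coding genes 28.7%, so the members' share was near or below the background. The rises were 7 subunits of complex I and the assembly factors NDUFAF5 and COX18. The falls were 4 subunits of complex I, 1 of complex IV, 3 of complex V and 3 assembly factors. With the libraries scaled to equal sums over protein-coding genes, 12 members were higher and 7 lower. Leaving out 1 library gave 3 higher and 5 lower without shCtrl 1, 2 and 7 without shCtrl 2, 2 and 3 without shCtrl 3, 10 and 7 without shHOTAIR 1, 2 and 4 without shHOTAIR 2, and 4 and 11 without shHOTAIR 3.

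Over all tested members, log2 changes were more often negative than positive. The median log2 change over the 102 members was -0.15, beside -0.03 over protein-coding genes tested, with 70 members negative and 32 positive (68.6% negative, against 54.7% of protein-coding genes). By complex, the median log2 change was -0.11 for complex I, 0.19 for complex II, -0.12 for complex III, -0.24 for complex IV, -0.15 for complex V and -0.17 for assembly factors. Without shHOTAIR 1 the median was -0.08 over all members and -0.03 for complex I, and without shCtrl 3 it was -0.09, -0.04 and, for complex III, -0.05. The 3 values of each group did not overlap in 35 of 102 members (34.3%, 11 higher and 24 lower), against 43.0% of all genes and 49.7% of protein-coding genes tested.

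**Figure D2:**
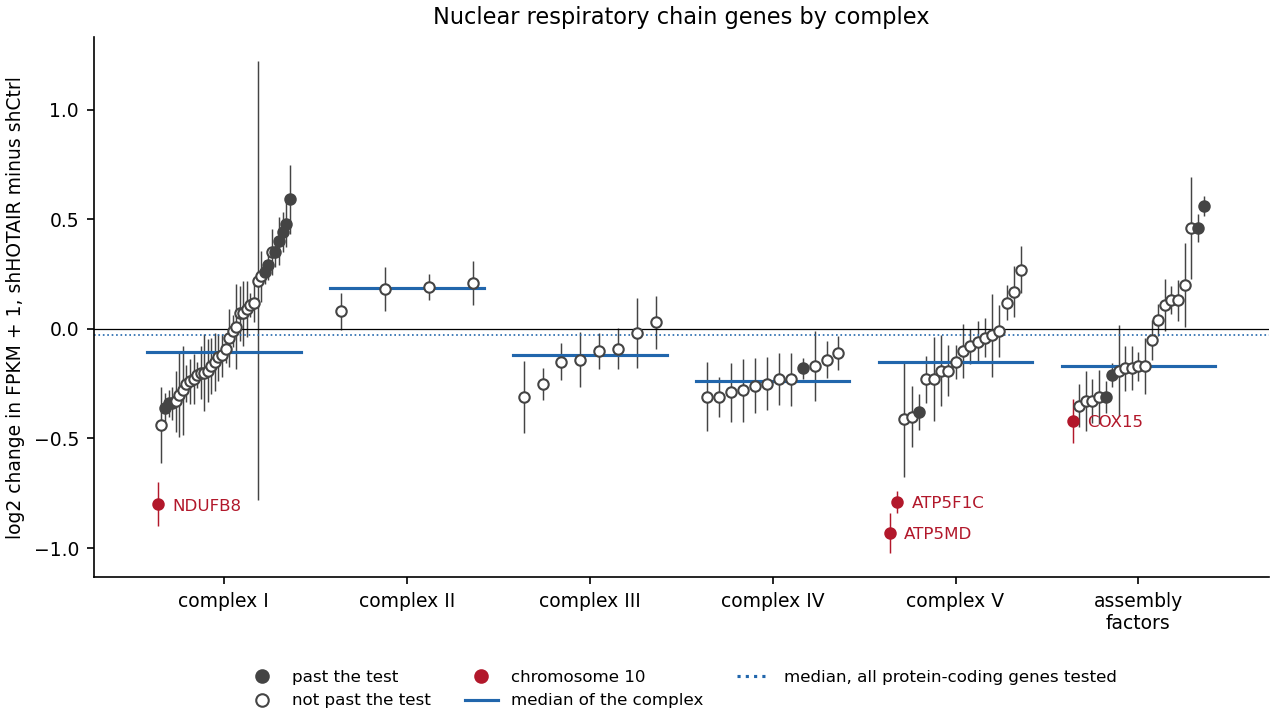
Log2 change (shHOTAIR minus shCtrl, log2(FPKM + 1) scale) of every tested member by complex, with bars for the SE, filled points for members past the adjusted p threshold, chromosome 10 genes in red, and lines for the median of each complex and of protein-coding genes tested. The 4 chromosome 10 members are all lower, all 12 complex IV members lie below 0, and the 9 rises are in complex I and among assembly factors.

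Transcript length and library moved with the members' median. Members with a longest transcript under 1000 bases (30 tested) had a median log2 change of -0.23 and the other 72 one of -0.11, and among protein-coding genes the medians were -0.15 under 1000 bases and -0.03 from 1000 bases up. Against the shCtrl mean, the members' median was -0.23 in shHOTAIR 1, -0.14 in shHOTAIR 2 and -0.04 in shHOTAIR 3, and -0.01, -0.08 and 0.08 in shCtrl 1, 2 and 3. Short protein-coding genes gave -0.24, -0.15 and -0.06 in shHOTAIR and 0.01, -0.09 and 0.07 in shCtrl. The members' median in shHOTAIR 3 thus lay between those of shCtrl 1 and shCtrl 2, and that in each library lay within 0.02 of the short genes' median. The part of transcript length and library in the members' median was not tested.

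The largest falls were on chromosome 10, where all 4 members were lower: ATP5MD, NDUFB8, ATP5F1C and COX15, with a median log2 change of -0.80. That chromosome was lower as a whole in shHOTAIR, with 298 of its 443 protein-coding genes tested called lower (67.3%), 12 called higher and a median of -0.52. The 98 tested members elsewhere held the 9 rises and 7 falls, with a median of -0.14.

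ATP5MD (ENSG00000173915, chr10:103389041-103396492 in GRCh38, minus strand) encodes a small membrane subunit of ATP synthase also known as DAPIT. Its level was 507, 491 and 563 FPKM in shCtrl 1, 2 and 3 and 245, 282 and 292 FPKM in shHOTAIR 1, 2 and 3. Every shHOTAIR library lay well below every shCtrl library, with a log2 change of -0.93 (SE 0.0917, limma adjusted p 0.0023). NDUFB8 (ENSG00000166136, chr10:100523740-100530000, minus) encodes an accessory subunit in the membrane arm of complex I. Its level was 171, 159 and 184 FPKM in shCtrl and 86.3, 107 and 102 FPKM in shHOTAIR, a log2 change of -0.80 (SE 0.1, adjusted p 0.00452), again without overlap. ATP5F1C (ENSG00000165629, chr10:7788129-7807815, plus) encodes the gamma subunit, the rotating central stalk of ATP synthase. Its level was 386, 393 and 398 FPKM in shCtrl and 222, 220 and 236 FPKM in shHOTAIR, with a log2 change of -0.79 (SE 0.0501, adjusted p 0.000796). Both groups were tight here, and this was the smallest adjusted p of any member.

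COX15 (ENSG00000014919, chr10:99711844-99732100, minus) encodes an enzyme that makes heme A, the cofactor of complex IV. Its level was 26.6, 27.9 and 24.2 FPKM in shCtrl and 22.1, 18.0 and 17.9 FPKM in shHOTAIR, a log2 change of -0.42 (SE 0.102, adjusted p 0.0344). The groups did not overlap, but the call was lost without any 1 of shCtrl 1, 2 and 3 and shHOTAIR 2 and 3, with adjusted p up to 0.113. ATP5MD overlaps TAF5, NDUFB8 overlaps HIF1AN and COX15 overlaps CUTC on the opposite strand, and reads of such pairs cannot be told apart because use of strand is not given. The falls of these 4 members were then set against their surroundings. In each library, the median log2(FPKM + 1) level of the 50 nearest protein-coding genes tested on the same chromosome was subtracted. This median of levels is not the neighbours' median log2 change. A centred value therefore need not equal the member's change minus that of its neighbours, here and below. Neighbours had median log2 changes of -0.59 for ATP5MD, -0.51 for NDUFB8, -0.68 for ATP5F1C and -0.52 for COX15, and 36 to 39 of the 50 were themselves called lower. So centred, ATP5MD stayed lower (-0.37, adjusted p 0.0459), while NDUFB8 (-0.27, adjusted p 0.204) and ATP5F1C (-0.17, adjusted p 0.112) lost the call and COX15 changed sign (0.07, adjusted p 0.666).

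Complex I, which oxidises NADH, had changes in both directions: 7 of its 38 members rose, 4 fell and 27 did not pass the test. The called share was 28.9%, against 28.7% of protein-coding genes tested. One of the 38 is the readthrough gene NDUFC2-KCTD14, which is not a subunit. Its core subunits, which hold the flavin and iron-sulfur clusters, gave 1 rise and 1 fall among 7, and the 30 accessory subunits gave 6 rises and 3 falls. NDUFS1 and NDUFV2 are both iron-sulfur subunits of the arm that takes electrons from NADH. NDUFS1 was at 82.5, 91.2 and 92.6 FPKM in shCtrl and 107, 106 and 114 FPKM in shHOTAIR, a log2 change of 0.29 (SE 0.065, adjusted p 0.0272). NDUFV2 was at 313, 271 and 303 FPKM in shCtrl and 228, 230 and 231 FPKM in shHOTAIR, a log2 change of -0.36 (SE 0.067, adjusted p 0.015). Neither gene's groups overlapped, so these neighbouring subunits of the same arm differed in opposite directions.

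The accessory subunits NDUFS6, which binds zinc, and NDUFS4 belong to the same arm and also split. NDUFS6 had the largest rise of any member, from 70.2, 80.6 and 86.4 FPKM in shCtrl to 95.9, 130 and 137 FPKM in shHOTAIR (log2 change 0.59, SE 0.156, adjusted p 0.0444). NDUFS4 fell from 87.8, 81.8 and 94.9 FPKM to 67.7, 66.1 and 74.0 FPKM (log2 change -0.34, SE 0.0767, adjusted p 0.0274). Over the 9 subunits of that arm, 2 rose and 2 fell (44.4% called, against 28.7% of protein-coding genes tested), with a median log2 change of -0.20. This grouping was made after these values were seen. NDUFS6 lost its call without any 1 of shCtrl 1, 2 and 3 and shHOTAIR 2 and 3 (adjusted p up to 0.14), NDUFS4 without any 1 of shCtrl 1 and 3 and shHOTAIR 1 and 2 (up to 0.0858), NDUFV2 without shCtrl 3 or shHOTAIR 2 (up to 0.0552) and NDUFS1 without any 1 of the 6 (up to 0.0705). With neighbours subtracted none of these 4 calls held, with log2 changes of 0.45 for NDUFS6, 0.15 for NDUFS1, -0.22 for NDUFV2 and -0.02 for NDUFS4 (adjusted p 0.142, 0.146, 0.167 and 0.905). In the same order, the neighbours' median log2 changes were 0.18, 0.23, -0.07 and -0.04. The centred values come from the neighbours' median levels and not from these changes.

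In the membrane arm, NDUFA1 rose from 68.0 ± 5.33 to 95.5 ± 11.5 FPKM (SD, n = 3 each). NDUFA1 lies on the X chromosome, and its log2 change was 0.48 (SE 0.108, adjusted p 0.0282). Other rises there were NDUFA10 (43.9 ± 1.38 to 60.1 ± 6.92 FPKM, log2 change 0.44), NDUFC1 (60.8 ± 5.81 to 80.7 ± 9.22 FPKM, 0.40) and NDUFB3 (25.6 ± 1.22 to 32.9 ± 2.04 FPKM, 0.35), with adjusted p of 0.0219, 0.0489 and 0.017. NDUFA3, a small subunit of the same arm, fell from 72.9 ± 3.16 to 57.5 ± 2.96 FPKM (log2 change -0.34, adjusted p 0.0138). NDUFA5, an accessory subunit of the ubiquinone-binding arm, rose from 27.9 ± 0.699 to 33.6 ± 1.63 FPKM (log2 change 0.26, adjusted p 0.0231). The groups did not overlap in any of these 6 genes.

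Leaving out shCtrl 1, 2 or 3 or shHOTAIR 2 ended the calls of NDUFA10 and NDUFA5 (adjusted p up to 0.0778 and 0.0707), and those of NDUFA1 and NDUFC1 were ended by these libraries and by shHOTAIR 3 (up to 0.0953 and 0.143). NDUFB3 lost its call without any 1 of shCtrl 2 and 3 and shHOTAIR 2 and 3 (up to 0.0631), and NDUFA3 without shCtrl 3 (0.0502). NDUFA1 sits among genes that rose, with 43 of its 50 neighbours called higher and a neighbour median of 0.65, and with neighbours subtracted its log2 change was -0.29 (adjusted p 0.165). The centred log2 changes of NDUFA10, NDUFC1 and NDUFB3 were 0.17, 0.08 and 0.14 and that of NDUFA3 was -0.28, none past the threshold (adjusted p 0.264, 0.685, 0.4 and 0.0838). NDUFA5 kept its call (0.38, adjusted p 0.0346), and its neighbours' median was -0.09. NDUFA1 overlaps RNF113A, NDUFA3 overlaps TFPT, NDUFB3 overlaps FAM126B, NDUFC1 overlaps NAA15 and NDUFS1 overlaps EEF1B2 on opposite strands.

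The other 27 complex I members had log2 changes between -0.44 and 0.35 and did not pass. The lowest was NDUFS8, a core subunit that carries iron-sulfur clusters toward the ubiquinone site, at 191, 167 and 196 FPKM in shCtrl and 104, 155 and 154 FPKM in shHOTAIR (adjusted p 0.13). Its groups did not overlap, but shHOTAIR 1 stood well below the other 2 libraries of its group. The highest was NDUFB5 of the membrane arm, at 151, 179 and 153 FPKM in shCtrl and 231, 191 and 195 FPKM in shHOTAIR (0.35, adjusted p 0.0678), also without overlap. NDUFV1, which binds NADH and flavin and partners NDUFV2, was at 148, 126 and 136 FPKM and 102, 118 and 128 FPKM, with overlap (-0.24, adjusted p 0.158). The core subunits NDUFS3 and NDUFS7, the latter an iron-sulfur subunit that passes electrons to ubiquinone, lay closer to 0, at -0.04 and 0.12 (adjusted p 0.866 and 0.404). NDUFS7 was also far lower in level, at 6.96 FPKM in shCtrl, against 80.1 for NDUFS3, 137 for NDUFV1 and 184 for NDUFS8. NDUFAB1, the mitochondrial acyl carrier protein, was at 326, 317 and 331 FPKM in shCtrl and 219, 247 and 318 FPKM in shHOTAIR (-0.33, adjusted p 0.15), where shHOTAIR 3 alone reached the shCtrl range.

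**Figure D3:**
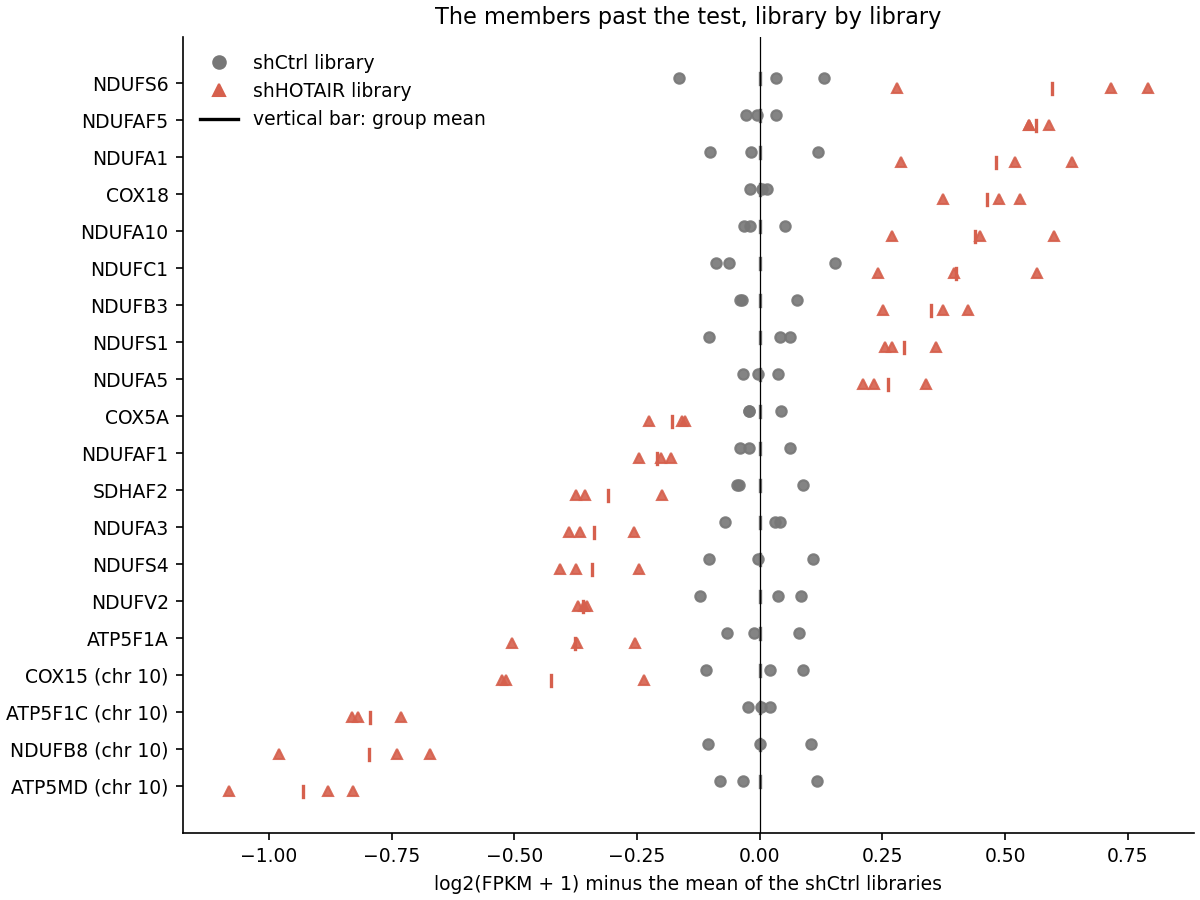
Log2(FPKM + 1) of each of the 20 called members in every library, minus its mean over the shCtrl libraries, with a vertical bar for the group mean. ATP5MD, NDUFB8 and ATP5F1C stand lowest in the shHOTAIR libraries, and NDUFS6 and NDUFA1 are least raised in shHOTAIR 1, their leftmost triangle.

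Complex II, succinate dehydrogenase, joins the citric acid cycle to the chain and is encoded entirely in the nucleus. None of its 4 subunits passed the test with limma, and all 4 had positive log2 changes, unscaled and under each of the 3 whole-library scalings tried (median of ratios, equal sums, quantile). SDHA, the flavoprotein, was at 170, 147 and 180 FPKM in shCtrl and 172, 192 and 200 FPKM in shHOTAIR (log2 change 0.18, adjusted p 0.24), with overlapping groups. SDHB, the iron-sulfur subunit, was at 163, 154 and 151 FPKM in shCtrl and 175, 171 and 189 FPKM in shHOTAIR, without overlap (log2 change 0.19, adjusted p 0.0752). The membrane anchors SDHC (91.6 and 96.7 FPKM) and SDHD (70.1 and 81.5 FPKM) had log2 changes of 0.08 and 0.21 (adjusted p 0.53 and 0.179). SDHB passed the test with median-of-ratios scaling, equal sums or quantile normalization, and its centred log2 change was -0.26.

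Complex III passes electrons from ubiquinol to cytochrome c, and 8 of its 9 members were tested, none of which passed. The nearest to the threshold was UQCRC2, a large matrix-facing subunit, at 200 and 168 FPKM in shCtrl and shHOTAIR (log2 change -0.25, adjusted p 0.0602), and it was the single complex III member whose groups did not overlap. UQCRFS1, the Rieske iron-sulfur protein, was at 19.6 and 18.2 FPKM (-0.10, adjusted p 0.418). UQCRC1, the partner of UQCRC2, was at 175, 137 and 147 FPKM in shCtrl and 142, 152 and 175 FPKM in shHOTAIR, a log2 change of 0.03 (adjusted p 0.894). UQCR11, a small subunit, ran from 83.8 FPKM in shHOTAIR 1 to 127 FPKM in shHOTAIR 3, where shCtrl lay between 113 and 134 FPKM (-0.31, adjusted p 0.229). UQCRB and UQCRQ had log2 changes of -0.15 and -0.02 (adjusted p 0.253 and 0.942). UQCRHL, a copy of the hinge protein gene UQCRH, ranged from 0.557 to 1.26 FPKM, against 313 to 393 FPKM for UQCRH itself.

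Complex IV, cytochrome c oxidase, had 12 tested nuclear members, among them NDUFA4, which was first counted with complex I. All 12 had negative log2 changes, from -0.31 to -0.11, the last that of COX7A2L. All 12 stayed negative under each of the 3 whole-library scalings, and 11 of 12 did with neighbours subtracted, where NDUFA4 was at 0.14. Only COX5A, a subunit on the matrix face, passed the test. It was at 252, 241 and 241 FPKM in shCtrl and 219, 209 and 220 FPKM in shHOTAIR, without overlap (log2 change -0.18, SE 0.0482, adjusted p 0.0481). That call was lost without any 1 of the 6 libraries (adjusted p up to 0.0989), with equal sums (0.16) and with neighbours subtracted (-0.23, adjusted p 0.0629).

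The other 11 complex IV members did not pass the test. COX4I1, an early-assembling subunit, was at 190, 164 and 207 FPKM in shCtrl and 122, 159 and 173 FPKM in shHOTAIR, so shHOTAIR 3 lay above shCtrl 2 (log2 change -0.31, adjusted p 0.209). COX6A1 was at 365, 314 and 395 FPKM and 248, 301 and 340 FPKM, with overlap again (-0.28, adjusted p 0.223). COX8A was at 131, 126 and 150 FPKM and 101, 114 and 113 FPKM, without overlap (-0.31, adjusted p 0.0592). COX6B1, COX7A2 and COX7B had log2 changes of -0.26, -0.25 and -0.23 (adjusted p 0.188, 0.186 and 0.215), and NDUFA4 one of -0.14 (0.288). In all, groups did not overlap in 4 of the 12 (33.3%, against 43.0% of all genes and 49.7% of protein-coding genes tested). In each of COX4I1, COX6A1 and COX8A the lowest value was that of shHOTAIR 1.

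Complex V, ATP synthase, had 19 tested members, of which 3 fell, none rose and 16 did not pass. The called share was 15.8%, against 28.7% of protein-coding genes tested. The falls were ATP5MD and ATP5F1C of chromosome 10 and ATP5F1A, the alpha subunit of the catalytic head, on chromosome 18. ATP5F1A was at 401, 376 and 362 FPKM in shCtrl and 293, 267 and 318 FPKM in shHOTAIR (log2 change -0.38, SE 0.0821, adjusted p 0.0249), without overlap. ATP5F1B, its partner in the head, was at 1970, 1940 and 1720 FPKM in shCtrl and 1930, 1620 and 1850 FPKM in shHOTAIR, so the groups overlapped (log2 change -0.06, adjusted p 0.682, and 0.01 with equal sums). The ATP5F1A call was lost without any 1 of shCtrl 1, 2 and 3 and shHOTAIR 1 and 2 (adjusted p up to 0.079). Its neighbours had a median log2 change of -0.41 with 23 of 50 called lower. With the neighbours' median level subtracted in each library, the log2 change of ATP5F1A was 0.09 (adjusted p 0.618). ATP5F1A also overlaps HAUS1 on the opposite strand.

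Outside the head, the 3 genes of the c ring, the proton-driven rotor, had log2 changes from -0.23 to -0.10, none past the threshold. ATP5MC1, ATP5MC2 and ATP5MC3 encode the same mature c subunit, and ATP5MC3 gave most of their FPKM (376 in shCtrl, against 134 and 68.0). Peripheral stalk subunits ranged from -0.40 for ATP5PD (adjusted p 0.0963) to 0.17 for ATP5PO (0.351). ATP5PD was at 222, 202 and 228 FPKM in shCtrl and 134, 172 and 191 FPKM in shHOTAIR, without overlap, and shHOTAIR 1 was again the lowest. ATP5PB, of the same stalk, was at -0.04 (adjusted p 0.768), and at 0.03 with equal sums. ATP5IF1, the inhibitor of ATP hydrolysis by the enzyme, was at 54.4 and 66.2 FPKM (0.27, adjusted p 0.124).

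Among the 21 assembly factors, 2 rose, 3 fell and 16 did not pass. The called share was 23.8%, against 23.8% of all genes and 28.7% of protein-coding genes tested. NDUFAF5, which modifies the complex I subunit NDUFS7, was at 26.9, 28.1 and 27.3 FPKM in shCtrl and 40.6, 40.6 and 41.8 FPKM in shHOTAIR (log2 change 0.56, SE 0.0449, adjusted p 0.00136). The spread within both groups was small against the difference between them. NDUFAF5 (ENSG00000101247) lies at chr20:13784950-13821582 on the plus strand. COX18, which inserts part of the mitochondrially encoded subunit COX2 into the membrane, was at 8.22, 8.38 and 8.44 FPKM in shCtrl and 12.1, 11.1 and 12.5 FPKM in shHOTAIR (log2 change 0.46, SE 0.0621, adjusted p 0.00566). COX18 (ENSG00000163626) lies at chr4:73052362-73069755 on the minus strand. Neighbours of both had a median log2 change of 0.31, with 24 and 20 of 50 called higher. With the neighbours' median level subtracted in each library, neither gene passed (0.21, adjusted p 0.0889, and 0.27, adjusted p 0.162).

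Beside COX15, the falls were SDHAF2 and NDUFAF1. SDHAF2, which helps attach flavin to SDHA, was at 55.1, 55.3 and 60.6 FPKM in shCtrl and 49.5, 43.7 and 44.3 FPKM in shHOTAIR (log2 change -0.31, SE 0.072, adjusted p 0.0305). NDUFAF1, a factor for the membrane arm of complex I, was at 14.3, 15.2 and 14.1 FPKM and 12.5, 12.1 and 12.7 FPKM (log2 change -0.21, SE 0.0541, adjusted p 0.0417). Groups did not overlap in either gene. SDHAF2 lost its call without any 1 of shCtrl 1, 2 and 3 and shHOTAIR 2 and 3 (adjusted p up to 0.0909) and NDUFAF1 without any 1 of the 6 libraries (up to 0.125). With neighbours subtracted their log2 changes were -0.06 and -0.22 (adjusted p 0.657 and 0.181), and with equal sums their adjusted p was 0.083 and 0.154. COX10, which makes heme O upstream of COX15, was at 9.64 and 7.44 FPKM (-0.33, adjusted p 0.0678), and COX20 had a log2 change of -0.35 (0.0538). COX17, which carries copper to complex IV, was at 20.2, 22.5 and 21.3 FPKM in shCtrl and 20.1, 35.6 and 36.2 FPKM in shHOTAIR (0.46, adjusted p 0.213), so that shHOTAIR 1 was at the shCtrl level and the other 2 libraries stood above it. NDUFAF2, which helps attach the NADH-oxidising arm of complex I, was at 62.5, 61.7 and 72.0 FPKM and 44.8, 54.4 and 59.4 FPKM, without overlap (-0.31, adjusted p 0.129).

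Across members, changes followed those of the surrounding genes. Over the 102 tested members, a member's log2 change and the median of its 50 neighbours had a Pearson correlation of 0.805 and a Spearman correlation of 0.694, and without chromosome 10 of 0.747 and 0.655 (98 members). These points share the 6 libraries, and nearby members share neighbours, so no p is given. The neighbours' median had the sign of the member's change for 8 of 9 rises and 10 of 11 falls, and NDUFA5 and COX5A were the exceptions. Some of these medians were small, with -0.02 for NDUFAF1, -0.04 for NDUFS4 and -0.07 for NDUFV2, beside -0.03 over protein-coding genes tested. Neither the correlation nor this count was taken over all genes tested, so they are not shown to be particular to the members. With neighbours subtracted in all 15359 genes that could be centred, 14.0% changed, and of the members 2 were higher and 2 lower. ATP5MD and NDUFA5 kept their calls. NDUFC2, a membrane arm subunit of complex I (centred log2 change 0.33, adjusted p 0.0479, against -0.21 and 0.0525 uncentred), and NDUFAF4, a complex I assembly factor (-0.32, 0.0263, against -0.17 and 0.133), passed only after centring. Their neighbours' median log2 changes were -0.17 and -0.02. Centring subtracts median levels, so these 2 centred values are not differences from the neighbours' changes.

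**Figure D4:**
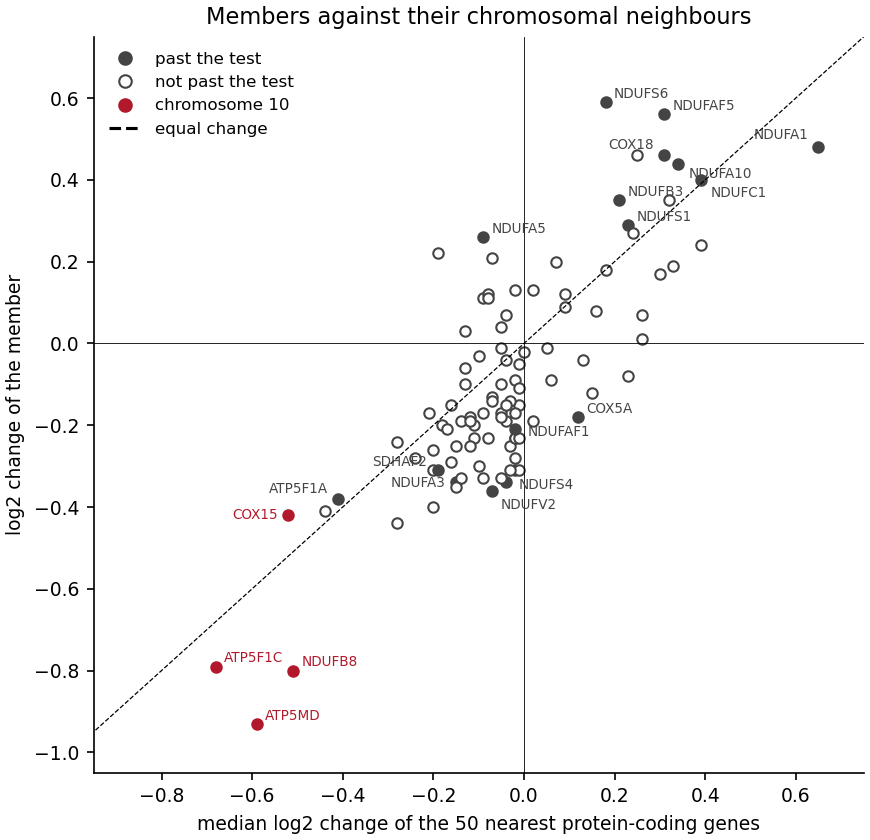
Log2 change of each tested member (vertical axis) against the median log2 change of its 50 nearest protein-coding genes (horizontal axis), with called members labelled, chromosome 10 members in red and a dashed line of equal change. The chromosome 10 members lie at the lower left, NDUFA1 at the right, and ATP5MD and NDUFA5 are the called members that stay past the threshold with their neighbours subtracted.

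Summed FPKM gives the total message for each complex, dominated by its highest genes. For complex IV the sum was 2625, 2464 and 2879 in shCtrl and 2109, 2258 and 2453 in shHOTAIR, a change of -14.4%. For complex V it was 5689, 5416 and 5503 against 4687, 4518 and 5192 (-13.3%), and for complex II 486, 455 and 508 against 536, 532 and 566 (12.7%). In these 3 complexes the groups did not overlap, and the exact two-sided permutation p was 0.1, the smallest that 3 against 3 libraries can give. With median-of-ratios scaling the exact permutation p of the complex IV sum was 0.2, and those of complexes II and V stayed at 0.1. The complex V sum holds ATP5MD and ATP5F1C of chromosome 10, and it was not taken without them. Their means went from 520 to 273 FPKM and from 392 to 226 FPKM, shCtrl to shHOTAIR. The part of the other complex V members in the fall of the sum was not tested. Complex I changed by -5.41% (3800 ± 201 to 3600 ± 335, SD, n = 3 each, exact permutation p 0.4) and complex III by -7.73% (1710 ± 165 to 1580 ± 93.4, exact permutation p 0.3), both with overlap. Assembly factors summed to 763 ± 39.2 and 768 ± 45.1 (exact permutation p 0.7), and all 112 members to 15000 ± 686 and 13600 ± 888, a change of -9.31% with overlap (exact permutation p 0.2). No sum can pass 0.05 in this design. On the log2 scale the complex I sum, -0.08, was -0.02 without shHOTAIR 1, -0.15 without shHOTAIR 3, -0.04 without shCtrl 3 and -0.01 with equal sums, and the complex III sum, -0.12, was -0.05 without shCtrl 3, -0.19 without shCtrl 2 and -0.04 with equal sums. The sum over all members, -0.14, was -0.07 with equal sums.

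**Figure D5:**
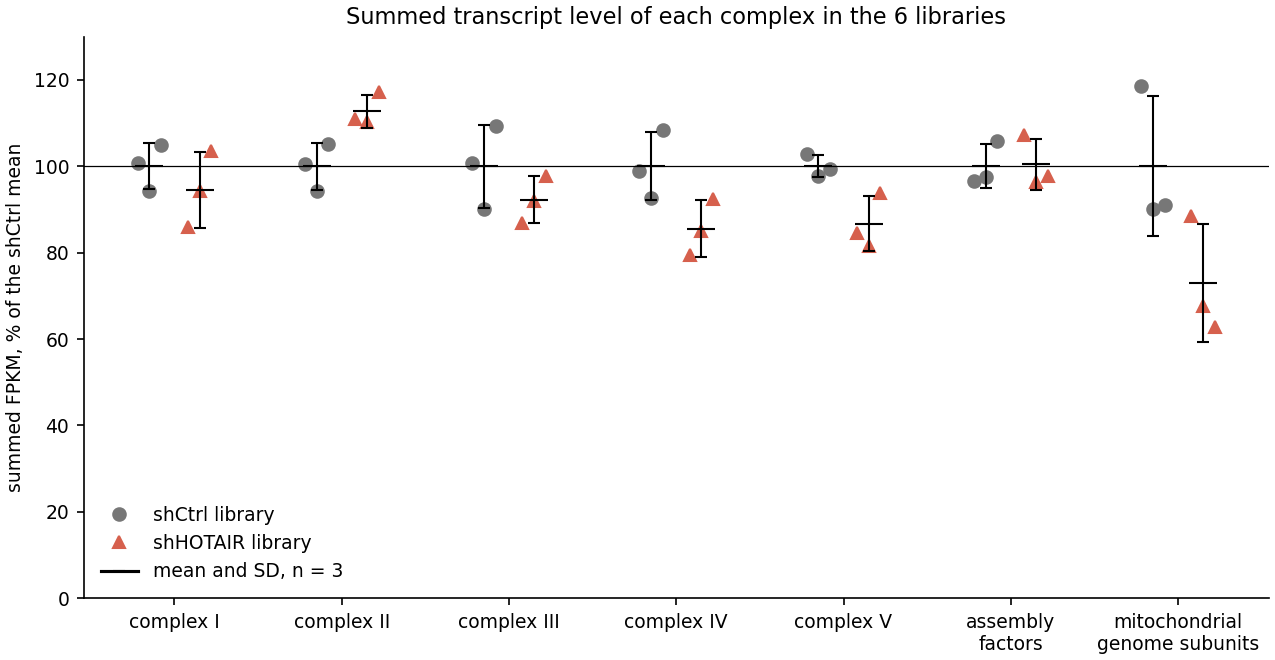
Summed FPKM of the members of each complex, and of the 13 subunits of the mitochondrial genome, in each library (points), as percent of the shCtrl mean, with group means and SD (n = 3). The shHOTAIR libraries lie below all shCtrl libraries for complexes IV and V and the mitochondrial genome subunits and above them for complex II, and overlap with them for complexes I and III and assembly factors.

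The 13 chain subunits encoded by mitochondrial DNA, which complete complexes I, III, IV and V, all had negative log2 changes, from -0.60 to -0.12. Their summed FPKM was 65669, 49883 and 50407 in shCtrl and 48975, 37484 and 34774 in shHOTAIR (-26.9%, exact two-sided permutation p 0.1), without overlap. The largest parts of this sum came from the short genes MT-ATP8, MT-ND4L and MT-ND3. Their shCtrl means were 18900, 8610 and 7850 FPKM, in a summed mean of 55300. None of the 13 passed the test with limma over all genes, where MT-CO3 came nearest (log2 change -0.52, adjusted p 0.0558). Groups did not overlap in 7 (53.8%, against 43.0% of all genes and 49.7% of protein-coding genes tested). MT-ATP6, MT-ND1 and MT-ND2 each had a log2 change of -0.60 (adjusted p 0.0599, 0.0676 and 0.076). When only protein-coding genes were fitted, 7 of the 13 passed, all lower. Without shHOTAIR 1, 3 passed, with a limit of 5 FPKM 2 passed, and with robust limma 1, all lower. The sum was highest in replicate 1 of both groups, and with a replicate block 7 of the 13 passed, all lower.

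Of 84 nuclear genes tested in lists of related factors outside the symbol rule, 8 rose and 13 fell (25.0%, near the 23.8% of all genes and 28.7% of protein-coding genes tested), with a median log2 change of -0.09. Complex I assembly factors gave 3 rises and 1 fall among 14 (28.6%, near the share over protein-coding genes). COA1 rose from 44.2, 42.5 and 42.7 FPKM to 72.6, 68.3 and 65.3 FPKM (log2 change 0.66, adjusted p 0.00157) and kept its call with neighbours subtracted (0.38, adjusted p 0.0288). AIFM1 (0.61, adjusted p 0.0228) and TIMMDC1 (0.27, 0.0465) rose, but were at -0.09 and -0.12 with neighbours subtracted, and TMEM186 fell (-0.37, 0.0413). The last 3 calls did not survive leaving out single libraries, AIFM1 without any 1 but shCtrl 1 (adjusted p up to 0.0799), TIMMDC1 without any 1 but shHOTAIR 2 (0.124) and TMEM186 without any 1 of the 6 (0.134).

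Complex IV assembly factors gave 4 falls and no rise among 19 (21.1%, against 28.7% of protein-coding genes called in either direction and 14.9% called lower). SMIM20, a small protein that stabilises new COX1, fell from 62.9 ± 5.40 to 37.9 ± 3.76 FPKM (log2 change -0.72, adjusted p 0.00586). COA4 (-0.77, adjusted p 0.0113), SCO2, a copper chaperone (-0.29, 0.0299), and TIMM21 (-0.36, 0.0465) also fell. None of the 4 passed with neighbours subtracted (adjusted p 0.112, 0.377, 0.0643 and 0.798). COA4 lost its call without shCtrl 1 (0.051), SCO2 without any 1 library but shCtrl 1 (up to 0.0952) and TIMM21 without any 1 but shHOTAIR 1 (up to 0.137).

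ATPAF1, a chaperone for the ATP synthase head, rose from 46.6, 48.8 and 48.6 FPKM to 81.3, 67.3 and 69.6 FPKM, also with neighbours subtracted (log2 change 0.58, adjusted p 0.00638, and 0.44, 0.0188). It was the single call among 5 complex V assembly factors. TTC19, a factor of complex III, was the single call among 8 genes of complex III and cytochrome c (0.24, adjusted p 0.0195, up to 0.0587 without shCtrl 1, shCtrl 3 or shHOTAIR 3). It lost the call with neighbours subtracted (0.19, adjusted p 0.0848), where UQCC1, an assembly factor of complex III, passed instead (0.46, 0.0167, against 0.22 and 0.106 uncentred).

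Regulators of respiratory genes gave 5 falls and no rise among 17 tested (29.4%, against 28.7% of protein-coding genes called in either direction and 14.9% called lower). MYC, a transcription factor that drives growth and mitochondrial gene programmes, was at 370, 328 and 333 FPKM in shCtrl and 201, 184 and 183 FPKM in shHOTAIR (log2 change -0.86, adjusted p 0.00152), and -0.81 with neighbours subtracted (0.00213). PPARGC1B, a coactivator of the same programme, fell from 3.05 ± 0.239 to 1.94 ± 0.160 FPKM (-0.46, adjusted p 0.0311) and stayed lower after centring (-0.77, 0.0204), though not without shCtrl 1, shCtrl 3, shHOTAIR 2 or shHOTAIR 3 (up to 0.0676). PPARGC1A, the related coactivator, was at 2.30 and 2.87 FPKM (0.22, adjusted p 0.379) and passed as higher only after centring (0.64, 0.044). TFB2M, a mitochondrial transcription factor, fell (-0.28, adjusted p 0.0121), but not with neighbours subtracted (0.426). PPRC1 (-0.66, adjusted p 0.00245) and TFAM, which packages and transcribes mitochondrial DNA (-0.27, 0.0473), lie on chromosome 10. Of that chromosome's protein-coding genes tested, 67.3% were called lower. Neither gene passed after centring, at -0.12 (adjusted p 0.321) for PPRC1 and 0.10 (0.52) for TFAM, so TFAM changed sign. TFAM also failed the test when any 1 of shCtrl 2 and 3 and shHOTAIR 1, 2 and 3 was left out (up to 0.128).

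Carriers and membrane organisers gave 3 rises and 3 falls among 21 (28.6%, against 28.7% of protein-coding genes tested). SLC25A4, the ADP/ATP carrier of heart and muscle, fell from 10.7, 9.24 and 11.2 FPKM to 3.05, 3.68 and 3.97 FPKM (log2 change -1.32, adjusted p 0.00163), and SLC25A5, the carrier of dividing cells, rose from 408 ± 26 to 618 ± 74.9 FPKM (0.59, 0.0129). SLC25A4 kept its call with neighbours subtracted (-0.79, adjusted p 0.00592), whereas SLC25A5 on the X chromosome was then at -0.17 (0.309), and without shCtrl 2, shCtrl 3 or shHOTAIR 2 its adjusted p reached 0.0526. TIMM23 (-0.68, adjusted p 0.00211), a channel of the import machinery, and VDAC2 (-0.67, 0.00151), an outer membrane pore, fell on chromosome 10. VDAC2 kept its call after centring (-0.30, adjusted p 0.0293) and TIMM23 did not (0.634). APOOL (0.54, adjusted p 0.0081) and OPA1 (0.28, 0.0241), both shaping the inner membrane, rose without keeping the call after centring (0.112 and 0.602), and OPA1 lost it without shCtrl 1, shCtrl 3, shHOTAIR 2 or shHOTAIR 3 (up to 0.0705). All 4 nuclear list genes on chromosome 10 were lower.

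Copies elsewhere in the genome could take reads from some members. Pseudogenes named after a member were found for 50 members, 168 in all, of which 7 had at least 1 FPKM. Their share of the combined FPKM was 14.2% for ATP5F1E, the epsilon subunit of ATP synthase, 5.29% for SDHA and 2.72% for NDUFB1. Among the 20 called members it was at most 0.754%, for NDUFV2.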

How the data were processed

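Poly(A) RNA of 6 MDA-MB-231 libraries, 3 per hairpin, was grouped by the labels' titles, which matched the column names. The authors deposited FPKM values per gene, used as given. The submitters' processing notes name DESeq, TopHat2 2.0.13 and the build GRCh38, without role or order. For these FPKM the strand setting, filters, annotation and program were not stated in the sources used here.

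Members and lists were chosen with earlier results of these data known. Gene type, symbol and position came from GENCODE 29, which matched 56807 of 65198 rows by identifier. Genes averaging 1 FPKM or more were compared as log2(FPKM + 1), which understates changes of low genes, with limma 3.58.1 in R 4.3.3 (intensity trend, no block), Benjamini-Hochberg adjustment over 15934 genes and a threshold of 0.05. Sums were compared with exact two-sided permutation tests (scipy 1.17.1). Replicate numbers did not pair libraries over all genes tested. The fit was tested on simulated data. Genes were named if called, on chromosome 10, among the 5 highest or lowest, under 1 FPKM, in complex II or in an isoform pair, and up to 4 per related list by p. All other genes named were chosen after their values were seen. 3 names of those lists matched no gene outside the members.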

Additional observations from a re-analysis of the deposited data

How the results depend on the processing

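For the 68 genes named from the test (40 members and 28 of the related lists), 974 of 1216 alternative values kept their direction and side of the threshold, 188 lost the call, 28 gained it and 26 changed sign. Of 9 members higher and 11 lower, subtracting the neighbours' median left 1 and 1 and added 1 of each, for 2 and 2 in all, no filter on low values left 5 lower, equal sums left 7 lower, and leaving out single libraries gave 2 to 10 higher and 3 to 11 lower. Of 8 listed genes higher and 13 lower, subtracting neighbours left 2 and 4 and added ACADVL, UQCC1 and PPARGC1A as higher, for 5 and 4 in all, no filter gave 8 lower, and leaving out single libraries gave 3 to 7 higher and 8 to 14 lower. Fitting protein-coding genes alone, with fewer genes tested, gave 29 listed genes lower, 7 of them mitochondrially encoded. Without a filter more genes are tested, and with 1 library left out fewer libraries are. For the other settings, the cause was not tested. Over all genes tested, replicate numbers did not pair the libraries (same-numbered correlations -0.0221, 0.00696 and -0.0307, others -0.0327 to 0.0543). This does not show whether they pair in a smaller set of genes. With a replicate block 4 members were higher and 4 lower, and 3 listed genes were higher and 13 lower. Of these 13, 7 were mitochondrially encoded (0 without the block) and 6 nuclear (13 without it). With neighbours subtracted, median log2 changes became -0.05 for all members, 0.04 for complex II, -0.03 for assembly factors and -0.22 for chromosome 10 members. Equal sums gave 0.26 for complex II, -0.11 for assembly factors and -0.07 for all members. Leaving out single libraries gave -0.19 to -0.08 for all members, -0.16 to -0.03 for complex I, 0.14 to 0.21 for II, -0.18 to -0.05 for III, -0.30 to -0.16 for IV, -0.23 to -0.10 for V and -0.20 to -0.13 for assembly factors. The log2 ratio of the summed level of assembly factors, 0.01, then ran from -0.04 to 0.05. The sign changes listed next cover only the 68 genes. Others, such as TFAM (0.10) and SLC25A5 (-0.17) with neighbours subtracted, are left out. With neighbours subtracted the sign changed for ATP5F1A (0.09), ATP5F1B (0.08), COX15 (0.07), NDUFA1 (-0.29), NDUFA4 (0.14), SDHAF1 (0.02), SDHB (-0.26), AIFM1 (-0.09) and TIMMDC1 (-0.12). With equal sums it changed for ATP5F1B (0.01), ATP5PB (0.03), SDHAF4 (0.01), UQCRQ (0.05) and the complex V factor TMEM70 (0.04), with quantile normalization for ATP5F1B (0.09) and with median of ratios for UQCRQ (0.01). NDUFC2-KCTD14 went from 0.22 to -0.40 and -1.43 with pseudocounts of 0.1 and 0.01. Leaving out single libraries gave ranges across 0 for ATP5F1B (-0.12 to 0.01), ATP5PB (-0.13 to 0.01), NDUFC2-KCTD14 (-0.58 to 1.19), UQCRQ (-0.18 to 0.10) and TMEM70 (-0.09 to 0.04). Depth is not known, so counting error could not be set beside these ranges.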
